A study of Mus musculus with 3 samples.

Results

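Sox10, Erbb3, Foxd3, Egr2, Ngfr, Mitf and Dct are 7 genes of Schwann cells, of the neural crest and of the melanocytes that come from it, and chromatin accessibility at them was measured in nuclei of whole mouse embryo sections by single-nucleus ATAC-seq (snATAC-seq). The genes were taken from a list and not picked by their measured values, but the list and the rules were chosen with earlier results of these data known. They are 7 of 20483 protein-coding autosomal genes that were counted. The nuclei came from wild-type (WT) embryos of the strain C57BL/6JRj at 3 stages, E12.5, E13.5 and then E15.5 (days of embryonic development), with 1 library per stage and no other treatment or allele. Nuclei were isolated from thick sections of frozen embryos, siblings of the ones profiled by spatial ATAC, and passed through a sort on the DNA dye 7-AAD. Each library mixes all tissues of its sections, and the labels do not say how many embryos it holds. Of the 1879 nuclei that the authors placed in 12 clusters, 1450 lie outside clusters 2 and 4, which hold shallow nuclei, and 109 are in cluster 7. These 109 split into 6 from E12.5, 36 from E13.5 and 67 from E15.5.

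The neural crest is a population of embryonic cells that leaves the dorsal neural tube and gives rise to peripheral glia, peripheral neurons, melanocytes and parts of the facial skeleton. Sox10 is a transcription factor of the SOX family that migrating crest cells switch on and that Schwann cells and melanocytes need and keep. Schwann cell precursors travel along growing nerves and depend on neuregulin, a growth factor of axons that they receive through the receptor pair ERBB2 and ERBB3. Some of these precursors become melanocytes, in which the transcription factor MITF turns on pigment enzymes such as DCT. Open chromatin at a gene or near it shows that the transposase Tn5 could enter there, and it is not a measure of transcription.

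Cluster 7 was not a Schwann cell cluster by its own markers. Of 10 Schwann cell and neural crest markers, 4 were at least 1.5-fold above the mean of the other clusters (Sox10, Erbb3, Foxd3 and Dct), against 8 of 9 epithelial and 7 of 7 chondrocyte markers. These folds average the libraries. At E15.5 alone, Sox10, Foxd3 and Dct were at 1.24, 1.14 and 1.15 times the mean of the other clusters and Erbb3 at 2.01 times. None of the markers of these lists was at 0 in cluster 7. The summed level of the Schwann and crest list was 390 to 457 counts per 1000000 fragments in gene spans (CPM) over the libraries of E13.5 and E15.5, which lay inside the range of other clusters (336 to 531 CPM in cluster 1 and 422 to 450 CPM in cluster 10). The epithelial list summed to 497 to 643 CPM, against at most 505 CPM in another cluster, and the chondrocyte list to 444 to 889 CPM, against at most 499 CPM. The lists hold different genes, so their sums are compared between clusters and not with each other. Keratin and cartilage genes such as Krt33a, Krt19 and Matn3 led the cluster, which is therefore called by its number. The part of these other cell types in the results was not tested, except where levels within groups of its nuclei are given. Of the 36 barcodes of cluster 7 at E13.5, 11 shared fragments of the same start and end with another barcode and are called linked. The shared fragments were at least 10% of those of the shallower barcode of the pair. Over these 11 linked barcodes, no Sox10, Foxd3 or Ngfr fragment was found among 151258 fragments in gene spans, while in the other 25 barcodes Sox10 was at 88.4 CPM. Of the 3 epithelial markers read in the same barcodes, Grhl2 was at 324 CPM in the linked and 187 CPM in the other barcodes and Epcam at 72.7 and 22.7 CPM, and Cdh1 had the opposite order, at 85.9 and 131 CPM. In the linked barcodes, Grhl2, Epcam and Cdh1 had 49, 11 and 13 fragments. A fragment shared by linked barcodes is counted in each of them, and keeping 1 barcode per linked group leaves 26 of the 36.

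Each gene was counted over 3 kinds of region. The span is the gene body plus 2 kb upstream, the promoter runs from 1000 bp upstream to 100 bp downstream of the annotated start, and the flanks are the 50 kb on either side of the span. In the mm10 build, Sox10 lies at chr15:79154908-79165240 on the minus strand, Erbb3 at chr10:128567523-128589652 on the minus strand, Foxd3 at chr4:99656299-99658622 on the plus strand and Egr2 at chr10:67535475-67542188 on the plus strand. Ngfr lies at chr11:95568818-95587735 on the minus strand, Mitf at chr6:97807052-98021349 on the plus strand and Dct at chr14:118012790-118052244 on the minus strand. The span of Erbb3 overlaps that of Pa2g4, so some fragments count for both. The flanks hold 3 further genes at Sox10, 6 at Erbb3, 1 at Egr2 and none at the other 4 loci.

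Insertions of Tn5 were also counted in 500 bp windows. A window was open where at least 1 cluster, summed over all libraries, had 20 insertions and 5 times its own mean. It was called where cluster 7 was at least 2-fold above the mean of the other clusters in both the E13.5 and the E15.5 library. At Sox10, Erbb3 and Dct, 12 called windows had insertions from at least 5 nuclei in both libraries. The 6 stretches printed first below are the middle 300 bases of 5 of these, picked as examples after their values were seen, together with Erbb3 at 4901 bp, which had 2 nuclei at E13.5 and 18 at E15.5 and is shown because its nuclei differ from those of the other Erbb3 windows. Their names give the distance in bp from the annotated start to the centre of the window, with positive values downstream. The 4 promoters that follow are the 250 bases before starts in RefSeq (GRCm38), shown for Foxd3, whose promoter was higher at E13.5 in cluster 7 than in any other cluster, for the upstream and the melanocyte-side start of Mitf, and for Dct. All are given 5′ to 3′ on the strand of the gene. Capitals mark matches on either strand to SOX (ACAAAG or ACAATG), TFAP2 (GCCNNNGGC), the MITF box (TCATGTG), FOX (TGTTTAC), EGR (GCGTGGGCG) and TEAD (GGAATG) letters. Promoters of Sox10 and Erbb3 are not printed.
Sox10 at -48011, chr15:79213101-79213400 (minus strand): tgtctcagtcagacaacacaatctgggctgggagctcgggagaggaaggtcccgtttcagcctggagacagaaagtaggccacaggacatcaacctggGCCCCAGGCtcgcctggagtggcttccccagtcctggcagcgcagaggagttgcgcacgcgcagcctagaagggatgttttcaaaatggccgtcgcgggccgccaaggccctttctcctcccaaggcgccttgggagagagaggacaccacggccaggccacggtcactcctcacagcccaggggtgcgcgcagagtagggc
Sox10 at 11989, chr15:79153101-79153400 (minus strand): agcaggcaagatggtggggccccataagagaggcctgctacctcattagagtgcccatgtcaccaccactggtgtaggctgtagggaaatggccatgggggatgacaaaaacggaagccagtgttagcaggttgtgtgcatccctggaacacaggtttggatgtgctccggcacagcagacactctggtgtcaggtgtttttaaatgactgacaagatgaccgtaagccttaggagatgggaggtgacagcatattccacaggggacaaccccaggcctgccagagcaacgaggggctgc
Erbb3 at 1401, chr10:128588101-128588400 (minus strand): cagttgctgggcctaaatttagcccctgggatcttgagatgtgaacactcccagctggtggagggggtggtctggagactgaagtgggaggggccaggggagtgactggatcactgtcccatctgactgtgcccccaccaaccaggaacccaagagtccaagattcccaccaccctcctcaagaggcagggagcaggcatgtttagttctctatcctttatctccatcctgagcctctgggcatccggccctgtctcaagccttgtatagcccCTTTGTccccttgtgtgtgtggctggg
Erbb3 at 2901, chr10:128586601-128586900 (minus strand): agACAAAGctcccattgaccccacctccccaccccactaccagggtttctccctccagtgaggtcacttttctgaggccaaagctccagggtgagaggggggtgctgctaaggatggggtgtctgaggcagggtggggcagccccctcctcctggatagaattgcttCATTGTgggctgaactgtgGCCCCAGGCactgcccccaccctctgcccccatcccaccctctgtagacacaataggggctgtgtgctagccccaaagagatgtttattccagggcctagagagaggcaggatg
Erbb3 at 4901, chr10:128584601-128584900 (minus strand): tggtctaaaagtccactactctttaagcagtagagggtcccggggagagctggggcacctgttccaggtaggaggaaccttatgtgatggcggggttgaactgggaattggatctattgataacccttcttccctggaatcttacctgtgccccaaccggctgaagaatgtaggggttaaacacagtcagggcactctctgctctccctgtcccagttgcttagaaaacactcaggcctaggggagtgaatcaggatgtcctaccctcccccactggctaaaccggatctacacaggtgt
Dct at 993, chr14:118051101-118051400 (minus strand): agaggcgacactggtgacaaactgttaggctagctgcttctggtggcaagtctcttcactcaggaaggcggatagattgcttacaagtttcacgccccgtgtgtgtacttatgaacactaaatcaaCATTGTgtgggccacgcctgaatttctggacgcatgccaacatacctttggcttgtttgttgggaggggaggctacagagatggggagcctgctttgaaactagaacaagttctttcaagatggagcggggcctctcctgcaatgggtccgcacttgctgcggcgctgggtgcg
Foxd3 promoter, chr4:99656049-99656298 (plus strand): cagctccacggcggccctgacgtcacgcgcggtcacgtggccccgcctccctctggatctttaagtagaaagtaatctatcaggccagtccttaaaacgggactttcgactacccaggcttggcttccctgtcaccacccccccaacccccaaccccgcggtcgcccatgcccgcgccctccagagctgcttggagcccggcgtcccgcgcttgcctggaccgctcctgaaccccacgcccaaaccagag
Mitf upstream promoter, chr6:97806808-97807057 (plus strand): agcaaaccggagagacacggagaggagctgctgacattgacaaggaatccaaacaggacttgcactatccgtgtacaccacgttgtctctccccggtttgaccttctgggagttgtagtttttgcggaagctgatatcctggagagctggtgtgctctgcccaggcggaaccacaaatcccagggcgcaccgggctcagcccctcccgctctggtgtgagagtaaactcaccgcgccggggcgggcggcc
Mitf melanocyte-side promoter, chr6:97991533-97991782 (plus strand): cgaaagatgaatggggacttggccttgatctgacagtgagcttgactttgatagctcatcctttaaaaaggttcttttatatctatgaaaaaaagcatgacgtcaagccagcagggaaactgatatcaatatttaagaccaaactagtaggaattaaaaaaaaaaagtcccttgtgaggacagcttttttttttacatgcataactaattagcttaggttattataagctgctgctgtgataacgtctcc
Dct promoter, chr14:118052247-118052496 (minus strand): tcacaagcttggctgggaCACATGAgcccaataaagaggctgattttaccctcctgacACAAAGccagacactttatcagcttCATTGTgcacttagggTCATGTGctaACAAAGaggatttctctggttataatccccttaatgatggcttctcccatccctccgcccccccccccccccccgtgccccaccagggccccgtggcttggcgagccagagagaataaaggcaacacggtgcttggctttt

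The stretch of Erbb3 at 2901 held 2 SOX and 1 TFAP2 match, that at 1401 held 1 SOX match, and that at 4901 held none of the 6 but 3 matches to the general E-box letters CANNTG, which every MITF box also holds and which were not put in capitals. The Dct stretch at 993 held 1 SOX match and the Dct promoter 3 SOX matches and 2 of the MITF box. The Sox10 stretch at -48011 held 1 TFAP2 match, and the stretch at 11989 held none of the 6. The printed promoters of Foxd3 and Mitf held none of the 6 either. A match is a description of letters only, and SOX letters are common: they occurred in 31.7% of 288870 open windows and in 25.2% of 32851 promoters.

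Counts of spans were compared first, to ask whether the spans of the 7 genes were more open in cluster 7 than in the other 9 clusters. Sox10 and Erbb3 were, and the other 5 genes did not pass the test. Sox10 stood at 78.7 CPM (109 fragments) in cluster 7 at E13.5, where the other clusters ranged from 6.5 to 32.1 CPM, and at 24.1 CPM (81 fragments) at E15.5, where the other clusters ranged from 5.73 to 30.3 CPM. Cluster 7 was thus the highest of 10 clusters at E13.5 and had 4 clusters above it at E15.5, so the groups overlapped in 1 of the 2 libraries. The fitted difference for Sox10 was 1.29 ± 0.28 (log2, SE) with an edgeR quasi-likelihood adjusted p of 0.00387. With the other nuclei pooled into 1 sum per library, which weights large clusters more, it was 0.92 ± 0.31 and did not pass (edgeR adjusted p = 0.196). Fitted differences and standard errors below are on the same log2 scale. Each SE is the size of the difference over the square root of the F value of the test, and is not a measured spread.

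Erbb3 encodes the neuregulin receptor of Schwann cell precursors and is also used by epithelia and muscle. Its span was at 77.3 CPM (107 fragments) in cluster 7 at E13.5 and 86.7 CPM (291 fragments) at E15.5, against means of the other clusters of 46.4 and 43.1 CPM. Cluster 7 was second at both stages, behind cluster 10 at 112 and 140 CPM, and above all remaining clusters in each library. Its fitted difference was 1.06 ± 0.21 with an edgeR adjusted p of 0.00157.

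Foxd3, a forkhead factor of early crest and of Schwann cell precursors, reached 23.8 CPM (33 fragments) at E13.5, above all 9 other clusters, and 13.7 CPM (46 fragments) at E15.5, above 5 of 8. Its difference of 1.61 ± 0.56 did not pass (edgeR adjusted p = 0.081). Much of that size came from cluster 11, a single sum of 35 shallow nuclei in which Foxd3 had no fragment: with cluster 11 left out, an alternative chosen after seeing the data, the difference was 0.74 ± 0.39 (edgeR adjusted p = 0.405). The same alternative left Sox10 at 1.06 ± 0.27 (edgeR adjusted p = 0.0351) and Erbb3 at 1.05 (edgeR adjusted p = 0.00531).

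Dct, the enzyme dopachrome tautomerase of the melanin pathway, was at 38.3 CPM (53 fragments) at E13.5, above all 9 other clusters, and at 20.2 CPM (68 fragments) at E15.5, above 5 of 8, with a difference of 0.70 ± 0.30 (edgeR adjusted p = 0.181). Mitf, the master factor of melanocytes, which many other cells also use from other starts, was at 102 and 112 CPM against means of the others of 104 and 124 CPM. Ngfr, the low-affinity neurotrophin receptor p75 of crest and immature Schwann cells, was below the mean of the others at both stages, at 35.4 against 55.2 CPM and 51.2 against 58.9 CPM. Egr2, the Krox20 factor that drives myelination, was at 31.8 against 33 CPM and 25.3 against 27.1 CPM. The differences of Mitf (0.23 ± 0.19), Ngfr (0.04 ± 0.23) and Egr2 (0.01 ± 0.27) had edgeR adjusted p-values of 0.586, 0.968 and 1. The fit averages clusters on the log scale, so the low cluster 11 pulls its mean down, and without that cluster Mitf was at -0.15 and Ngfr at -0.37.

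Over all genes, 5.47% of 19002 tested spans were called higher in cluster 7, against 2 of the 7 members, and the median difference was 0.10 over all genes and 0.70 over the members. The spread in these tests is that between sums of nuclei per cluster and library, not between embryos, and the clusters were made from the same nuclei. Each call rested on 2 sums of cluster 7, those of E13.5 and E15.5. Without the E13.5 library the Sox10 difference was 0.35 and that of Erbb3 1.31, with edgeR adjusted p-values of 1 and 0.204. Without the E15.5 library they were 1.87 and 0.85, with edgeR adjusted p-values of 0.00201 and 0.263. With 1 barcode kept per linked group, Sox10 was at 1.37 (edgeR adjusted p = 0.00185) and Erbb3 at 1.10 (edgeR adjusted p = 0.000606).

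**Figure D1:**
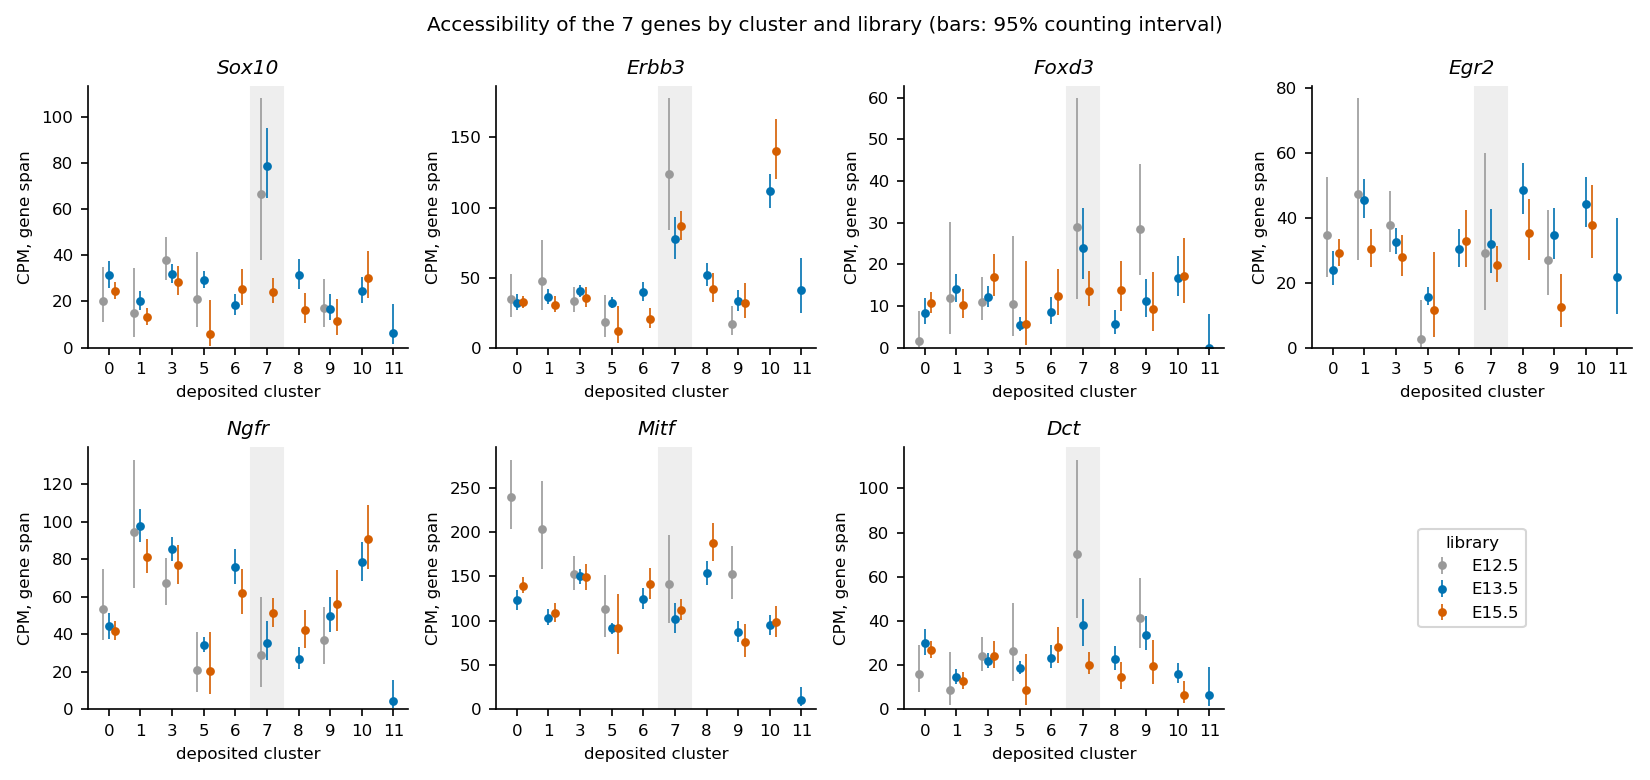
Accessibility of the 7 gene spans in each cluster, in CPM, with a point per cluster and library, bars for the 95% counting interval and cluster 7 shaded. Cluster 7 stands highest for Sox10 at E13.5 (78.7 CPM) but inside the range of the other clusters at E15.5 (24.1 CPM), while for Erbb3 it is second to cluster 10 in both libraries.

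The 6 nuclei of cluster 7 at E12.5 were too few for the fit and did not enter it. Sox10 had 16 fragments from 5 of the 6 nuclei (66.4 CPM, exact 95% Poisson interval 37.9 to 108) and Erbb3 30 fragments from 5 nuclei (124 CPM, 84 to 178). At that stage Sox10 in the clusters that entered the fit reached at most 37.8 CPM, in cluster 3. Of the clusters with fewer than 10 nuclei at E12.5, cluster 10 was higher than cluster 7, with 11 Sox10 fragments from a sum of 2 nuclei (125 CPM, 62.2 to 223). The 17 Dct fragments at E12.5 all came from 1 nucleus. Intervals here and below cover counting error only.

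Promoters gave the same 2 calls. The Sox10 promoter was at 13.7 CPM (19 fragments) in cluster 7 at E13.5 against 0 to 5.02 CPM in the other clusters, and at 2.98 CPM (10 fragments) at E15.5 against 0 to 3.97 CPM. The Erbb3 promoter was at 16.6 CPM at E13.5 and 25.6 CPM at E15.5, against means of 12.4 and 12.7 CPM. The differences were 2.09 ± 0.61 for Sox10 (edgeR adjusted p = 0.0157) and 1.00 ± 0.26 for Erbb3 (edgeR adjusted p = 0.00497), while 6.2% of all tested promoters were called higher. With cluster 11 left out, the Sox10 promoter no longer passed (1.41, edgeR adjusted p = 0.133). The Sox10 promoter could not be fitted without E13.5, because too few counts remained, and the Erbb3 promoter did not pass without E13.5 (1.48, edgeR adjusted p = 0.0591) or without E15.5 (0.66, edgeR adjusted p = 0.709).

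The Foxd3 promoter was at 9.39 CPM (13 fragments) at E13.5, above all other clusters, and at 3.57 CPM (12 fragments) at E15.5, above 6 of 8, with a difference of 1.64 ± 0.64 (edgeR adjusted p = 0.115), and it too could not be fitted without E13.5. Mitf has several starts, and different cell types use different ones. Its upstream start, whose promoter is printed above, was at 10.8 and 9.53 CPM in cluster 7 at the 2 stages, against 12.2 and 19.7 CPM in cluster 6, the highest of the others. The melanocyte-side start of Mitf had 1 fragment in cluster 7 of E13.5 and 0 in that of E15.5. A start of Mitf between these, at chr6:97929817, had 1 fragment at E13.5 and 10 at E15.5 (2.98 CPM), where cluster 7 was the highest of 9 clusters and the next was cluster 10 at 2.46 CPM. The Dct promoter had 3 fragments in each library and was higher in cluster 9, at 5.19 and 6.87 CPM. The Egr2 promoter had 2.89 and 0.596 CPM in cluster 7 against means of 3.37 and 2.97 CPM in the others, and cluster 7 was the last of 9 clusters there at E15.5. At 1 of the RefSeq starts inside the gene, Egr2 had 15.9 and 12.2 CPM in cluster 7 against means of 11.7 and 10.4 CPM, with cluster 8 higher at 18.4 and 18.6 CPM.

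In the 50 kb flanks only Sox10 was called. Cluster 7 had 416 CPM at E13.5, above all 9 other clusters, whose mean was 182 CPM, and 246 CPM at E15.5, where 2 of the 8 others were higher and the range was 103 to 276 CPM. The fitted difference was 0.97 ± 0.15 (edgeR adjusted p = 3.77e-05), and 4.44% of all tested flanks were called higher. Without E13.5 it was 0.53 (edgeR adjusted p = 1), and with cluster 11 left out 0.82 (edgeR adjusted p = 0.00177). The 3 other genes in these flanks, Micall1, 1700088E04Rik and Polr2f, share the fragments. The flanks of Dct (0.71 ± 0.24, edgeR adjusted p = 0.0746), Ngfr (0.52 ± 0.21, edgeR adjusted p = 0.151) and Foxd3 (0.97 ± 0.52, edgeR adjusted p = 0.324) did not pass. The Foxd3 flanks in cluster 7 lay below the mean of the others in both libraries, at 49.1 against 52.7 CPM and 58.4 against 63.8 CPM. With cluster 11 left out their difference was -0.17.

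**Figure D2:**
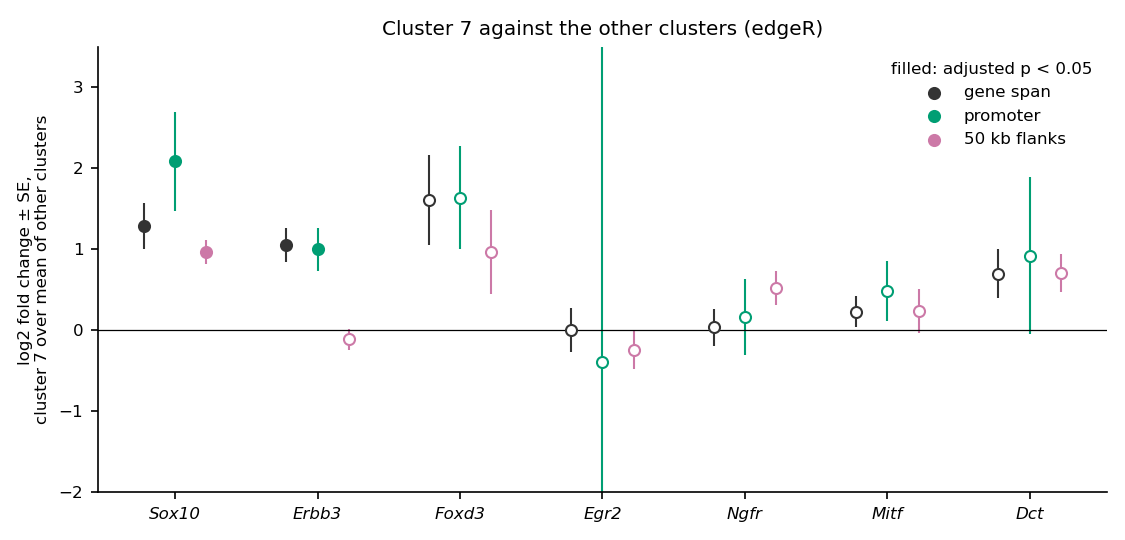
Fitted log2 difference between cluster 7 and the mean of the other clusters for the span, promoter and flanks of each gene, with bars of 1 SE and filled marks for adjusted p under 0.05. Sox10 passes in all 3 kinds of region and Erbb3 in span and promoter. The bar of the Egr2 promoter (SE 5.32, derived from the test) runs beyond the axis and is not a measured spread.

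The same fit was read for every other cluster against the rest, a reading added after seeing the data. The Sox10 span was also higher in cluster 3 (0.70 ± 0.26, edgeR adjusted p = 0.0408), where 19.1% of all genes were called. So was the Sox10 promoter (1.80 ± 0.58, edgeR adjusted p = 0.0172), with 16.5% of promoters called there. The Sox10 flanks were also higher in cluster 9 (0.53 ± 0.14, edgeR adjusted p = 0.00881) and cluster 10 (0.66 ± 0.16, edgeR adjusted p = 0.00288), where 9.18% and 9.99% of flanks were called. Erbb3 was higher in the muscle-like cluster 10 (1.79 ± 0.20, edgeR adjusted p = 3.48e-08), where 10.2% of genes were called, against 1.06 in cluster 7, and whether the 2 clusters differ was not tested. The Erbb3 promoter was higher in cluster 10 as well (1.97, edgeR adjusted p = 5.13e-13), where 7.25% of promoters were called. Foxd3 and Egr2 spans were called higher in no cluster. The Foxd3 flanks were higher in clusters 3, 6 and 10 (1.24, 1.32 and 1.88, edgeR adjusted p = 0.0154, 0.046 and 0.000219). The shares of all flanks called there were 19.8%, 7.23% and 9.99%. The Foxd3 flank difference was -10.24 in cluster 11 and positive in every other cluster, from 0.45 in cluster 8 to 1.88 in cluster 10. The low cluster 11 therefore enters each of these calls. Clusters are called by a cell type here only where their markers and leading genes allow it.

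Ngfr was higher in 4 clusters, all of them other than cluster 7. These were the mesenchyme-like cluster 1 (1.24 ± 0.19, edgeR adjusted p = 1.14e-05, 7.93% of genes called), cluster 3 (0.99, edgeR adjusted p = 0.000233), the neuron-like cluster 6 (0.81, edgeR adjusted p = 0.00992, 8.61% of genes called) and cluster 10 (1.14, edgeR adjusted p = 0.000179). Mitf was higher in clusters 0, 3, 6 and 8, most of all in cluster 8 (0.95, edgeR adjusted p = 0.000365), with 12.3% of genes called in cluster 0 and 7.3% in cluster 8. Dct was higher in the neural progenitor-like cluster 9 (0.86, edgeR adjusted p = 0.0409), where 9.17% of spans were called. Its promoter was higher there by 3.25 ± 0.71 (edgeR adjusted p = 0.000218) and in cluster 6 by 2.50 ± 0.79 (edgeR adjusted p = 0.0202), where 8.57% and 8.79% of promoters were called. Each of Ngfr, Mitf and the Dct promoter was therefore called in at least 1 cluster, and cluster 7 was not among them.

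Levels of different genes can be compared only per length. Per kb of span, cluster 7 at E13.5 held 6.39 CPM at Sox10, 5.51 at Foxd3, 3.65 at Egr2 and 3.2 at Erbb3, and 1.69, 0.924 and 0.471 at Ngfr, Dct and Mitf. At E15.5 the order was Erbb3 at 3.59 CPM per kb, Foxd3 at 3.17, Egr2 at 2.9, Ngfr at 2.45 and Sox10 at 1.96. Mitf has the longest span, 216 kb, and Foxd3 the shortest, 4.32 kb. Long spans hold more closed DNA, so a low value per kb is not a closed promoter.

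Between stages, Sox10 in cluster 7 was lower at E15.5 than at E13.5 by a ratio of 0.306 (95% exact conditional interval 0.227 to 0.412). The ratio was 0.575 (0.36 to 0.928) for Foxd3 and 0.529 (0.364 to 0.772) for Dct, 1.45 (1.05 to 2.03) for Ngfr, and intervals for Erbb3 (1.12), Mitf (1.1) and Egr2 (0.796) held 1. Over 16915 genes the median ratio was 1.03 and the range from the 5th to the 95th percentile 0.495 to 2.03, and 0.839% of genes had a ratio at or below that of Sox10. Averaged over nuclei instead of summed over fragments, the Sox10 ratio was 0.52, and with 1 barcode kept per linked group it was 0.279. In the latter case the interval of Ngfr held 1 (1.32, 0.955 to 1.85). Sox10 was lower at E15.5 in other clusters too, with intervals below 1 in cluster 1 (0.645, 0.449 to 0.917), cluster 5 (0.194, 0.0234 to 0.71) and cluster 8 (0.517, 0.325 to 0.798), while the intervals of the remaining 5 clusters held 1. With 1 library per stage there is no test, and stage, library and the mix of nuclei in cluster 7 cannot be told apart.

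The open windows placed the difference along the loci. Of 306 open windows at the 7 loci, 30 were called higher in cluster 7 (9.8%), against 4.84% of 288870 open windows of the autosomes. Sox10 held 19 of them among its 80 open windows (23.8%), Erbb3 4 of 64, Ngfr 4 of 98, Dct 2 of 15 and Mitf 1 of 14, while Foxd3 and Egr2 held none of 14 and 21. Of the 30 windows, 12 had insertions from at least 5 nuclei in both libraries. The Sox10 window at 44989 bp is an example of the others, since all its 12 insertions at E13.5 came from 1 nucleus. With 1 barcode kept per linked group, 30 of 304 open windows at the loci were called (9.87%), against 4.54% over the genome.

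At Sox10, the window at -48011 had 17 insertions from 6 nuclei at E13.5 and 28 from 7 nuclei at E15.5, which were 7.48 and 7.51 times the mean of the other clusters. The window at 11989, beyond the 3′ end of the gene, had 12 insertions from 5 nuclei and 26 from 10, at 4.44 and 6.62 times that mean. Neither window overlaps the body of a gene that was counted.

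At Erbb3, the window at 2901 had 23 insertions from 9 nuclei at E13.5 and 19 from 7 nuclei at E15.5 (9.01 and 2.67 times the mean of the others), and the window at 1401 had 20 from 9 nuclei and 29 from 12 (3.29 and 3.08 times). The window at 4901 had 8 insertions from 2 nuclei at E13.5 and 44 from 18 nuclei at E15.5 (2.09 and 10.5 times). All 3 lie in introns of Erbb3. Cluster 10 was the highest of the other clusters at 1401 and 2901 in both libraries, with up to 5.27 insertions per 1000000 (ipm) at 1401 against 4.42 in cluster 7 at E13.5. At 2901 it reached 1.12 and 1.5 ipm, against 5.09 and 1.82 ipm in cluster 7.

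At Dct, the window at 993, which covers the end of exon 1 and the start of intron 1, had 16 insertions from 6 nuclei at E13.5 and 37 from 14 nuclei at E15.5. These were 8.61 and 8.62 times the mean of the other clusters, while the promoter of Dct had 3 fragments in each library. The printed stretch of this window lies in the intron. The window of Mitf at 76699 had 5 and 20 insertions (3.28 and 2.96 times), and that of Ngfr at -24516 had 14 and 9 (5.84 and 3.66 times).

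The E12.5 library took no part in the fold rule that called windows, but its insertions counted toward a window being open. In its 6 nuclei of cluster 7, the 19 called Sox10 windows held 55 insertions, or 3.55 ipm per window against a mean of 0.522 ipm in the 5 other clusters with enough nuclei (6.8 times). The 4 Erbb3 windows held 25 insertions, or 7.67 against 0.628 ipm per window (12.2 times). The 5 clusters are 0, 1, 3, 5 and 9, without cluster 10, which was the highest of the others at the Erbb3 windows at 1401 and 2901 later on, and without clusters 6, 8 and 11, so these folds are not comparable with those of the later stages. The windows of Ngfr, Mitf and Dct held 4, 4 and 2 insertions at E12.5, too few to compare. For Sox10 and Erbb3, the windows called from the later stages were more open in cluster 7 than in these 5 clusters at E12.5. Because E12.5 helped to define open windows, this is not an independent check, and its nuclei are few and in a single library.

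**Figure D3:**
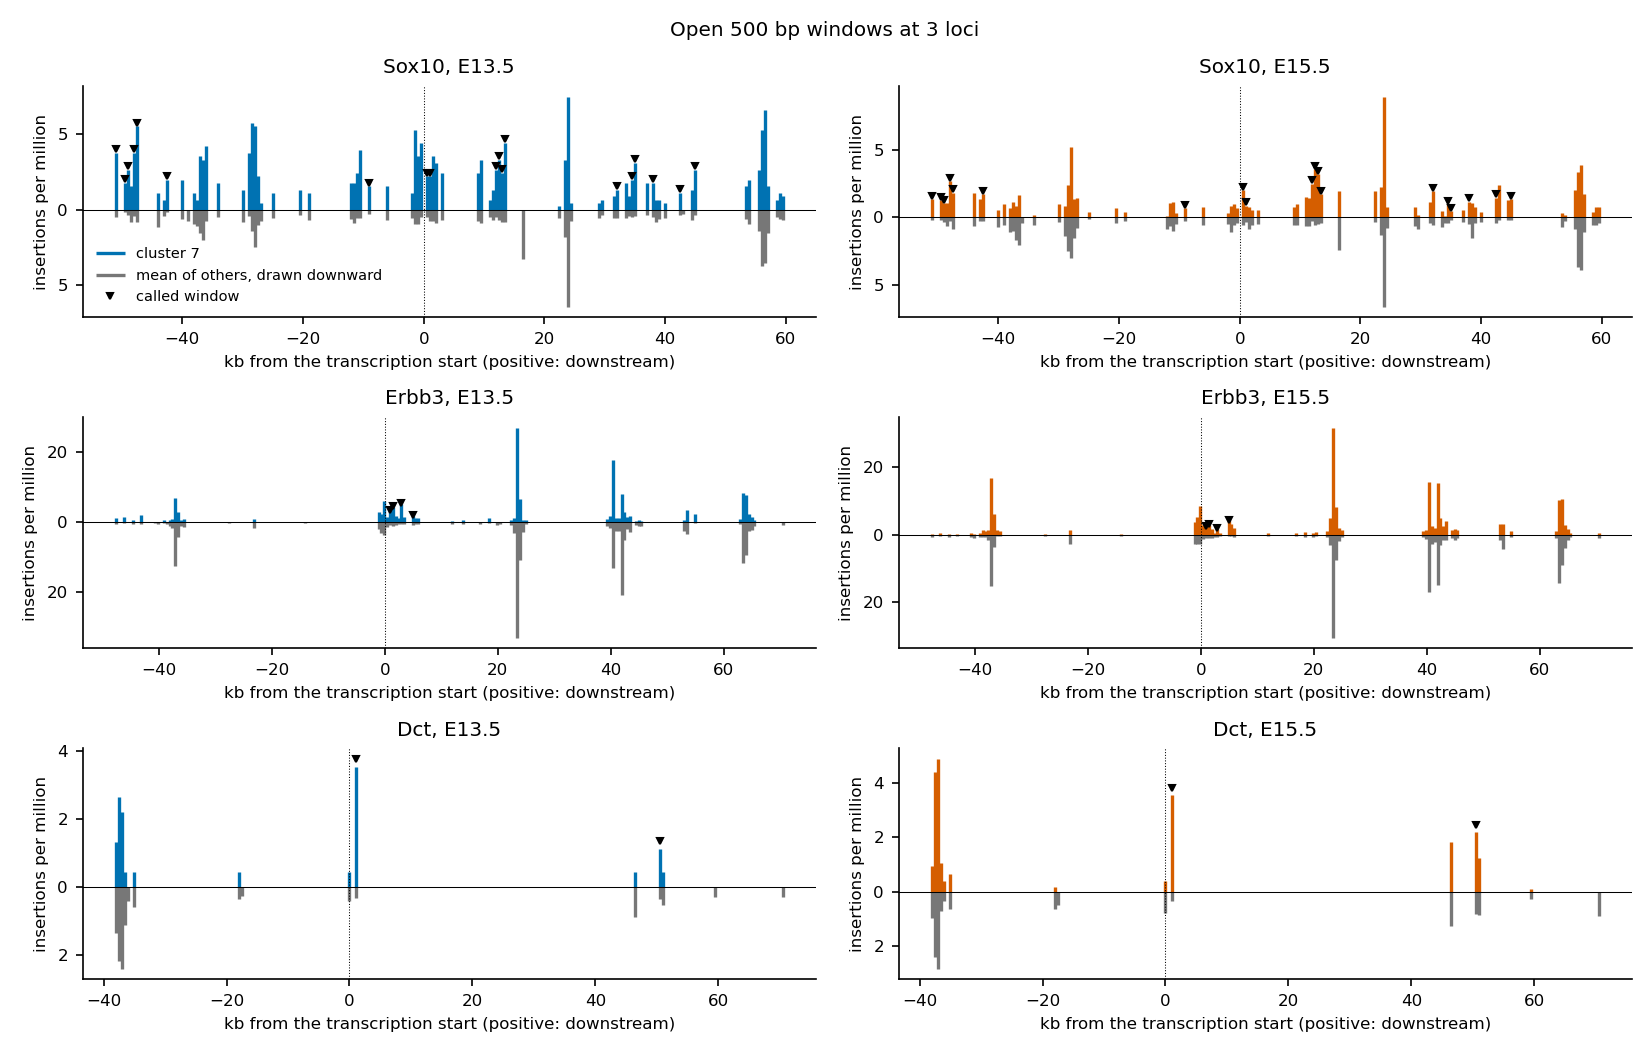
Tn5 insertions per 1000000 in the open 500 bp windows of Sox10, Erbb3 and Dct, by distance from the annotated start in kb, for cluster 7 (up) and the mean of the other clusters (down) in the libraries of E13.5 (left) and E15.5 (right), with triangles on called windows. At Sox10 19 of 80 open windows are called, at Erbb3 the 4 called windows lie just downstream of the start, and at Dct the called window at 993 bp stands out beside a start with few insertions.

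Letters of the SOX motif occurred in 13 of the 30 called windows, TFAP2 letters in 6, TEAD letters in 4, FOX and MITF box letters in 1 each, EGR letters in none and the general E-box in 23. Over all called windows of the genome the shares were 32.6% for SOX, 11.8% for TFAP2, 19.9% for TEAD, 4.13% for FOX, 4.63% for the MITF box, 0.0644% for EGR and 80.3% for the E-box. The 19 Sox10 windows held SOX letters in 8 and TFAP2 letters in 5. Adjacent windows can share a site of open chromatin, so these counts are not independent and were not tested.

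Whether the 7 genes were open in the same nuclei of cluster 7 was asked by ranking nuclei by the other 6 genes and comparing the highest 25% with the rest. Sox10 was at 124 CPM in the 9 highest nuclei and 58.5 CPM in the other 24 at E13.5 (ratio 2.12, 1.43 to 3.14), and at 49 and 17.4 CPM at E15.5 (ratio 2.82, 1.76 to 4.47). The ratios of Erbb3 were 2.89 and 1.63 and those of Foxd3 13.2 and 1.86. These 3 genes were at least 1.5-fold higher in both libraries. Egr2 (1.8 and 0.631) and Ngfr (2.25 and 0.978) were so at E13.5 alone, and Mitf (1.14 and 1.42) and Dct (1.31 and 1.12) in neither. The Foxd3 interval at E15.5 held 1 (0.934 to 3.55). With 1 barcode kept per linked group Foxd3 was at 3.53 at E13.5, and in the highest 10% of nuclei at 2.42 and 0.37. When nuclei were ranked by Sox10 alone, Erbb3 was at 1.4 (0.931 to 2.09) and 1.11 (0.85 to 1.45). Ranked by all 7 members, 3.28% of 14277 genes were at least 1.5-fold higher in both libraries. The linked barcodes held no Sox10 fragment, yet the Sox10 ratio at E13.5 changed with them. With 1 barcode kept per linked group, 7 nuclei made up the highest 25%, and the ratio was 1.25 (0.798 to 1.9). Several lists of markers of other cell types were also higher in the nuclei ranked highest by all 7 members, and others were lower. The neural progenitor list had ratios of 1.85 and 1.51, and the liver list had 1.85 at E13.5. At E15.5 the neuron list had 1.65, the endothelial list 1.5 and the epithelial list 1.49, while at E13.5 the endothelial and epithelial lists were at 0.641 and 0.816. The chondrocyte list was at 0.568 and 0.892 and the mesenchyme list at 0.95 and 0.724. The part of these other markers in the ratios of the members was not tested.

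The nuclei of cluster 7 were then divided into 4 groups from bins that lie more than 100 kb from every member, and the groups were numbered by their Sox10 level, so that order is fixed for Sox10. Over all libraries Sox10 was at 95.7, 49.6, 23.8 and 13.4 CPM in groups 1 to 4, of 37, 24, 24 and 24 nuclei. Erbb3 was at 144, 42, 113 and 50.9 CPM in the same order, so it was high in groups 1 and 3 and low in 2 and 4. Foxd3 was at 34.1, 7.64, 21.6 and 8.03 CPM, which ranks the groups as Erbb3 did when the libraries are summed, but at E13.5 it was highest in group 3, with 18 fragments from 4 nuclei, where Erbb3 was highest in group 1. Dct was at 36.9, 20, 37.5 and 17.4 CPM, but 17 of the 39 Dct fragments of group 1 were those of the single nucleus of E12.5. Within the later libraries Dct was higher in group 3 than in group 1, at 96.2 against 30.1 CPM at E13.5 and at 24 against 20.1 CPM at E15.5. Mitf was highest in group 3 at 149 CPM over all libraries, while at E15.5 it was at 167 CPM in group 1 and 155 CPM in group 3. Egr2 was at 21.4 to 31.3 CPM over all libraries, but its order changed with the stage: group 1 had 46.1 and group 2 had 21.1 CPM at E13.5, and 11.5 and 41.7 CPM at E15.5. Ngfr was at 40.1 to 51.1 CPM over all libraries and at 80.5 CPM in group 1 at E15.5.

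The groups differed in the markers of other cell types. The chondrocyte list summed to 1461 CPM in group 2 against 259 to 394 CPM in the others, and the cartilage genes Col9a1, Col9a2 and Snorc led that group. The epithelial list summed to 928 CPM in group 3 against 213 to 644 CPM, with the keratin gene Krt36 among its leading genes, and genes of fat cells such as Adipoq and Fabp4 led group 4. Group 1 was led by Gpr17, a receptor of oligodendrocyte progenitors, and the keratin gene Krt33a was also among its 10 leading genes. All 11 linked barcodes fell in group 1, and with 1 barcode kept per linked group and the grouping repeated, group 1 held 23 nuclei, with Sox10 at 117 CPM. The groups are left without a cell type name.

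Within stages the Sox10 level of the groups moved differently. At E15.5 the 12 nuclei of group 1 held Sox10 at 118 CPM (41 fragments), and groups 2, 3 and 4 held it at 13.9, 12.9 and 13.4 CPM. At E13.5 the levels were 88.2, 74.8 and 70.3 CPM in groups 1 to 3, and group 4 had no nucleus. The nuclei of group 1 at E13.5 include the 11 linked barcodes, in which no Sox10 fragment was found, which lowers its level. With these groups, Sox10 was spread over 3 groups at E13.5, where the level of group 3 rests on 19 fragments from 4 nuclei, and was high in 1 group at E15.5. That pattern depended on the grouping: with 6 groups, 2 were high at E15.5 (91.3 and 84.8 CPM), and with groups made from gene spans the E15.5 levels were 38.4, 24.2 and 9.67 CPM. Group 1 made up 20 of 36 nuclei of cluster 7 at E13.5 and 12 of 67 at E15.5, and with 1 barcode kept per linked group 8 of 26 and 10 of 67. All 24 nuclei of group 4 came from E15.5. Erbb3 in group 1 was at 108 CPM at E13.5 and 196 CPM at E15.5, and in group 3 at 70.3 and 126 CPM. The linked barcodes, all in group 1, held Erbb3 at 26.4 CPM (4 fragments), against 83.5 CPM in the other barcodes of cluster 7 at E13.5. They lower the E13.5 value of group 1. The E13.5 values of group 3 come from 4 nuclei, in which Foxd3 reached 66.6 CPM and Dct 96.2 CPM, against 10.1 and 24 CPM in the 19 nuclei of that group at E15.5.

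**Figure D4:**
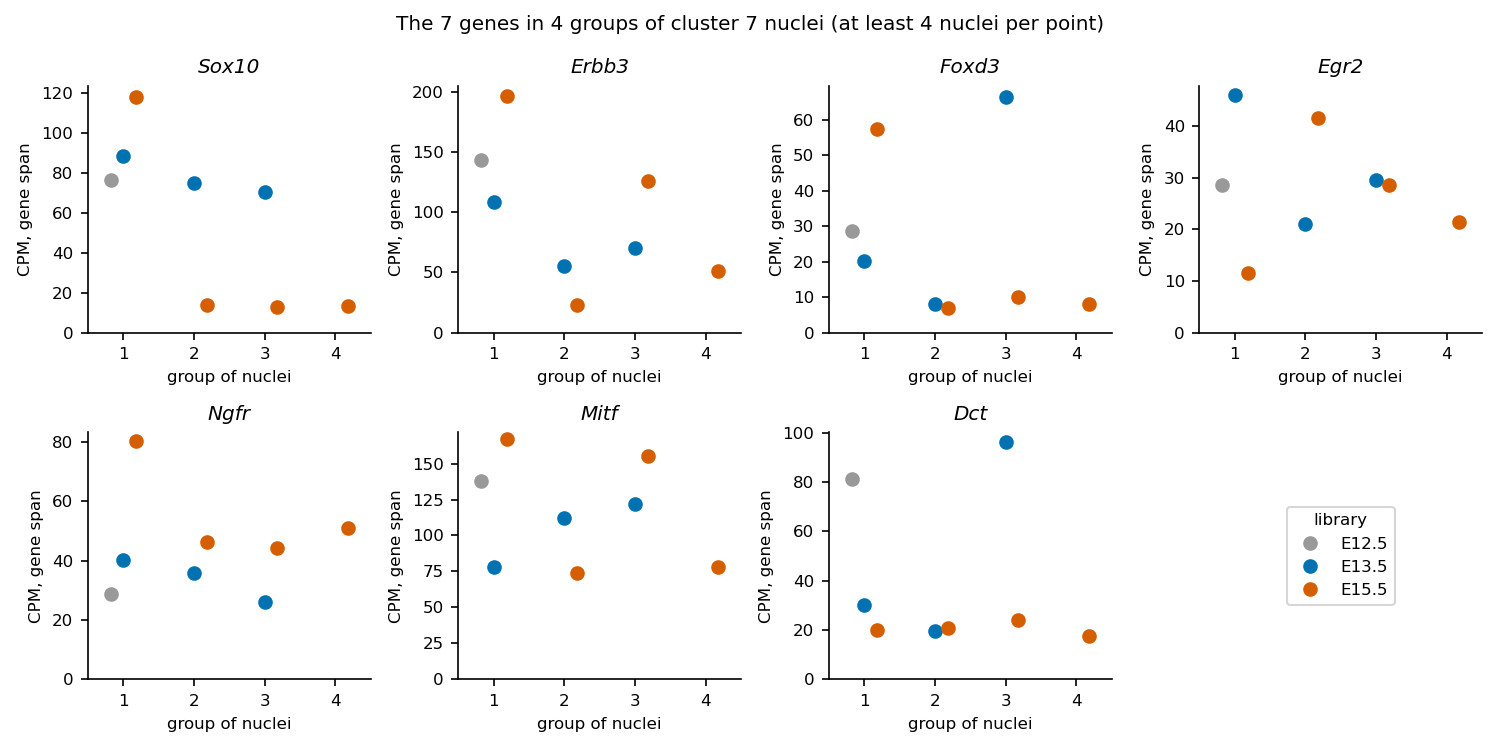
Levels of the 7 genes, in CPM of the gene span, in the 4 groups of nuclei of cluster 7, with a point per library where it has at least 4 nuclei of the group. Sox10 is near or above 70 CPM in groups 1 to 3 at E13.5 and above 14 CPM only in group 1 at E15.5, while Erbb3 is high in groups 1 and 3.

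The groups also separated the windows printed above. The Erbb3 window at 2901 had 43 insertions (12.2 ipm) in group 1 and 1 insertion (0.233 ipm) in group 3, and the window at 1401 had 11.3 ipm in group 1 and 2.1 ipm in group 3. The window at 4901, further into the same gene, had the opposite order, with 7 insertions (1.98 ipm) in group 1 and 44 insertions (10.3 ipm) in group 3. The window at 901, the last of the 4 called at Erbb3, was open in both groups, with 17 insertions (4.81 ipm) in group 1 and 16 (3.73 ipm) in group 3. The Erbb3 span was high in both groups, and 3 of its 4 called windows differed between them while that at 901 was shared. Dct at 993 was highest in group 3 at 8.16 ipm, against 0.866 to 2.26 ipm in the others. Sox10 at -48011 was highest in group 1 at 12.2 ipm, against at most 1.87 ipm in any other group. At 11989 group 1 had 6.22 ipm against at most 2.41 ipm. Group 1 is by its numbering the group with the highest Sox10 span, so its high Sox10 windows are not an independent result. The Sox10 window at 12489, which is not printed, had 12.2 ipm in group 1 over all libraries, but 33 of those 43 insertions came from E15.5, and at E13.5 the order was reversed, with 1.21, 3.59 and 6.56 ipm in groups 1 to 3. At 11989, too, group 1 was not the highest at E13.5, with 2.42 ipm against 4.37 ipm in group 3.

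These window values describe nuclei of the same libraries in which the windows were called, and the groups were made after the clusters. The stretch of Erbb3 at 2901 holds SOX letters and the stretch at 4901 does not, while SOX letters are found in 31.7% of all open windows. Of the 44 insertions at 4901 in group 3, 38 were at E15.5 and 6 at E13.5. Of the 43 at 2901 in group 1, 14 came from E12.5, 14 from E13.5 and 15 from E15.5.

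**Figure D5:**
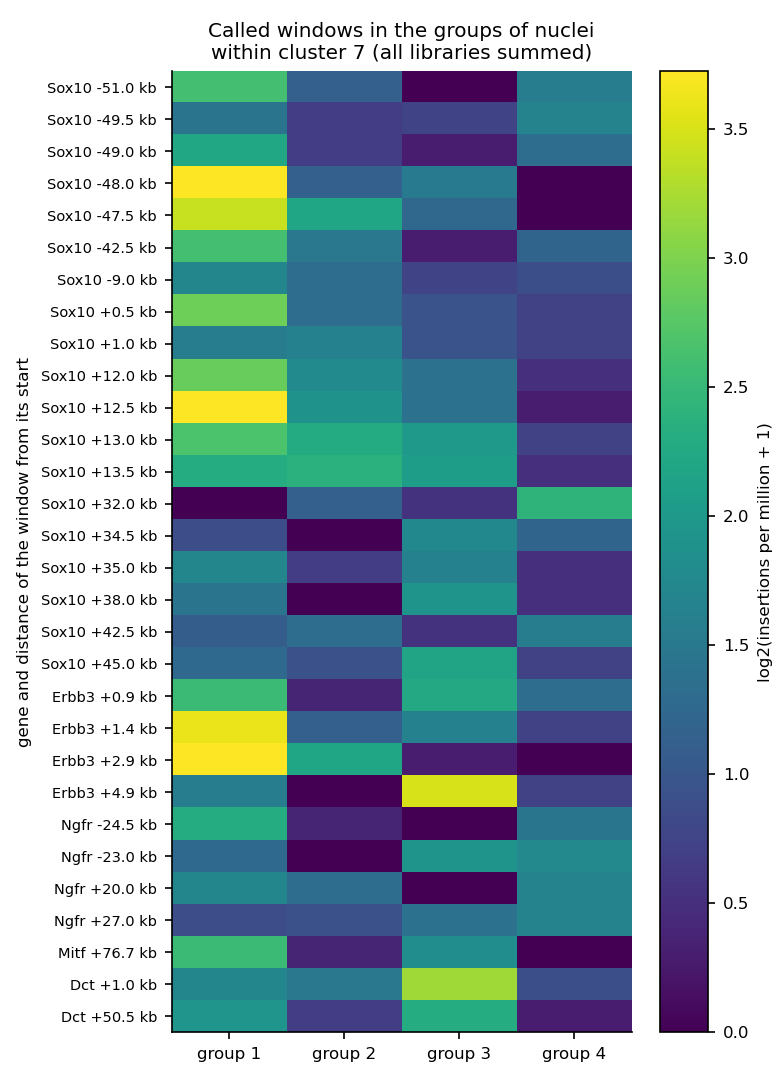
The 30 called windows (rows, by gene and distance from its start) in the 4 groups of nuclei of cluster 7 (columns), with color for log2 of insertions per 1000000 plus 1, all libraries summed. The brightest windows of Sox10, at -48011 and 12489, and of Erbb3, at 1401 and 2901, are in group 1, while Erbb3 at 4901 and Dct at 993 are brightest in group 3.

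Other genes of the same pathways were counted by lists. Over all genes 5.47% of spans were called higher in cluster 7. Of 12 Schwann cell genes, 4 were called higher in their spans, and 2 of the 10 promoters tested and 2 of 12 flanks. The 4 with higher spans were Pmp22, a myelin protein (0.96 ± 0.23), Mag, a myelin adhesion protein (1.53), S100b, a calcium-binding protein of glia and cartilage (1.99), and Lgi4, a secreted factor of Schwann cells (1.99), with edgeR adjusted p-values of 0.00761, 0.00113, 0.0126 and 0.00108. Of 11 neural crest factors tested, 1 was called, Sox9 (1.88 ± 0.38, edgeR adjusted p = 0.00151), which is also a chondrocyte marker. Of the promoters of these 11 genes 2 were called, Sox9 (2.06, edgeR adjusted p = 2.76e-07) and Sox8 (0.74, edgeR adjusted p = 0.0459), and of the flanks 1, that of Sox9 (0.92, edgeR adjusted p = 0.00991). Of 8 neurotrophin genes 1 was called, Ntf5 (1.26, edgeR adjusted p = 0.0116). For spans, a count of 1 of 11 or 1 of 8 is near the share over all genes. Over all genes 6.2% of promoters and 4.44% of flanks were called.

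No gene passed in its span among 4 ErbB receptors and neuregulins, 12 melanocyte genes and 6 genes of the enteric nervous system. Erbb2, the partner of Erbb3, was at 0.78 ± 0.25 in its span (edgeR adjusted p = 0.0556), and its promoter passed at 2.12 ± 0.43 (edgeR adjusted p = 0.000103). Among melanocyte genes Mlana had the largest difference (1.62 ± 0.66, edgeR adjusted p = 0.155). Ednrb was at 1.07 ± 0.60 and Tyrp1 at 0.70 ± 0.77 (edgeR adjusted p = 0.355 and 0.706). Tyr (-0.37) and Mc1r (-0.52) on the same list went the other way. Ednrb is on the enteric list as well, on which Hand2 was at 0.86. The median differences were 0.67 for Schwann cell genes, 0.58 for crest factors, 0.61 for the ErbB list and 0.51 for enteric genes. They were 0.41 for melanocyte genes and 0.33 for neurotrophins, against 0.10 over all genes. The calls and medians of all these lists come from the fit with cluster 11, which pulls the mean of the others down. Over all genes, 1039 spans were called higher with cluster 11 and 239 without it, and the lists were not read without it.

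Genes whose levels followed each member over the 24 sums of clusters and libraries were listed by Pearson correlation of log2 levels, leaving out neighbours within 200 kb. For Sox10 they were 4930562C15Rik (r = 0.85), Il18bp (0.82) and Inpp5j (0.82), and for Erbb3 Tmem184b (0.80), Bcam (0.80) and Top1mt (0.79). For Ngfr they were Lpar1 (0.94), Thpo (0.93) and Svep1 (0.92), and for Mitf Cables1 (0.93), Arhgef33 (0.92) and Myo1e (0.92). Foxd3 was led by Kdelc2 (0.86), Egr2 by Adam15 (0.85) and Dct by Olfr651 (0.89). Among the members themselves, the pairs ranged from r = -0.23 (Erbb3 and Dct) to 0.67 (Ngfr and Mitf), with Foxd3 and Ngfr at 0.64 and Sox10 and Dct at 0.56 next, and Sox10 and Erbb3, the members called in cluster 7, at 0.45. The sums share libraries and differ in depth, and these values are descriptions. They include the low sum of cluster 11, and r was not read without it. The fitted differences of that cluster were -3.64 for Ngfr, -3.38 for Mitf and -7.88 for Foxd3, and -0.16 for Erbb3. Olfr651 was near the floor in cluster 7, at 2.17 CPM at E13.5 and 1.19 CPM at E15.5.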

How the data were processed

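The samples were 3 snATAC-seq libraries, of E12.5, E13.5 and E15.5 embryos, each the only one of its stage. Per the file headers, the authors made the deposited fragment files with Cell Ranger ATAC version 2.0.0 against mm10. They list unique fragments, with ends already shifted to the Tn5 insertion and the deposited counts of read pairs behind each fragment. The submitters' processing notes also name Seurat 4.1.0 and Signac 1.6.0. A deposited table gave whole-number counts and the cluster of 1879 nuclei, of which 20 columns were not used. The settings behind these clusters were not given in the sources used here.

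The libraries held 9402554, 87687839 and 53120243 unique fragments for E12.5, E13.5 and E15.5, and nuclei of cluster 7 a median of 76240. Unique fragments overlapping each region of 20483 GENCODE vM21 protein-coding genes on chromosomes 1 to 19 were counted per nucleus. Genes of the Pcdh and Ugt clusters and spans over 500 kb were left out. Counts were summed per cluster and library, sums of under 10 nuclei were left out, and the 24 sums left (2 of cluster 7) entered edgeR 4.0.16 (R 4.3.3) with library as a covariate. Cluster 7 was set against the equally weighted mean of 9 other clusters by the quasi-likelihood test, with Benjamini-Hochberg adjustment over all genes tested and a threshold of 0.05. Summing was chosen because nuclei are not replicates. DESeq2 1.42.0 was an alternative, and the fit was tested on simulated data. Window folds used a pseudocount of 0.1 insertions per 1000000.

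Doublets were not removed, and 1 barcode occurs in more than 1 library. Strand cannot be told from ATAC-seq, and overlapping genes share fragments. In bulk sums, fewer cells with open chromatin and less opening per cell cannot be told apart. All 7 members are named, and of each wider list the genes past the test or, where none passed, the 3 with the largest change, except for some values that are not reported here. The members, lists and rules were chosen with earlier results of these data known. Clusters called by a cell type had at least 3 marker genes at 1.5-fold.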

Additional observations from a re-analysis of the deposited data

Results flagged for a closer look

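In 5 cases a member was above the mean of the other clusters in cluster 7 of one library and below it in the other. The Ngfr promoter was at 0.422 times that mean at E13.5 and 1.2 times at E15.5, and the Dct promoter at 1.8 and 0.422 times, each from few fragments (3 and 22 for Ngfr, 3 and 3 for Dct). The flanks of Erbb3 were at 0.81 and 1.15 times, those of Egr2 at 1.21 and 0.546 times and those of Mitf at 1.29 and 0.754 times. The difference between the stages was not tested in any of these, because each stage has 1 library.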

How the results depend on the processing

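Of 416 values recomputed under alternatives, 337 kept their direction and side of the threshold or moved little. Of the rest, 8 lost a call, 11 gained one, 32 moved and 28 changed sign or fell to 0.00 after rounding. These 28 passed the test neither before nor after. Leaving out a library gave log2 differences (without E13.5 the promoters of Sox10 and Foxd3 could not be fitted, so their ranges cover 2 of the 3 cases), for spans, promoters and flanks in that order, of 0.35 to 1.87, 2.10 to 2.89 and 0.53 to 1.25 for Sox10, 0.85 to 1.31, 0.66 to 1.48 and -0.29 to 0.18 for Erbb3, 0.11 to 2.15, 1.71 to 2.21 and -0.16 to 1.01 for Foxd3, 0.22 to 0.99, -0.59 to 2.34 and 0.29 to 0.85 for Dct, 0.00 to 0.05, -2.05 to 0.33 and -0.88 to 0.27 for Egr2, -0.27 to 0.04, -0.92 to 0.30 and 0.34 to 0.52 for Ngfr, and -0.13 to 0.23, 0.12 to 0.64 and -0.38 to 0.56 for Mitf. Without E12.5, Foxd3 passed in its span (1.65, edgeR adjusted p = 0.0351) and Dct in its flank (0.72, edgeR adjusted p = 0.0131). It gave 10 to 1646 calls for spans, 52 to 1092 for promoters and 0 to 1722 for flanks, against 1116, 978 and 1018 in both directions, and the lowest counts came without E13.5.

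With the other nuclei pooled into 1 sum, Sox10 was at 0.92 (edgeR adjusted p = 0.196) and 100 spans were called. Egr2, Ngfr and Mitf spans were then at -0.07, -0.45 and -0.18, and with cluster 11 left out at -0.06, -0.37 and -0.15. Egr2 was at -0.01 with RLE size factors and with DESeq2 and at 0.00 with sums of at least 20 nuclei. The Ngfr promoter was at -0.08 with cluster 11 left out and -0.19 with 1000 bp on either side. Among flanks, Erbb3 was at 0.04 with clusters 2 and 4 kept in, 0.03 with cluster 11 left out and 0.02 without the bodies of other genes, Mitf at -0.06 and -0.04 in the first 2 of these cases, and Foxd3 at -0.17 with cluster 11 left out. With sums of at least 20 nuclei, Foxd3 passed at 1.66 and the Dct flank at 0.72, with 1864 spans and 1998 flanks called. With clusters 2 and 4 kept in, 685 spans and 262 flanks were called. With cluster 11 left out, chosen after seeing the data, the Sox10 promoter was at 1.41 and 304 spans, 407 promoters and 318 flanks were called. Promoters of 1000 bp on either side passed at 1.96 for Foxd3 and 2.27 for Dct. Flanks of 20 kb passed at 1.44 for Ngfr and 1.51 for Dct, and the Dct flank also passed at 0.72 with nuclei of at least 3000 fragments, 0.74 with 1 barcode per linked group and 0.69 without the deepest 5% of nuclei. Flanks without the bodies of other genes gave 594 calls. In these cases the cause was not tested.

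Windows of 1000 bp gave 7393 calls over the genome and 17 at the 7 loci, and a 1.5-fold rule 27141 and 54. As a mean over nuclei, the stage ratio was 0.52 for Sox10 and 1.47 for Erbb3. In the ranking of nuclei, over both libraries, Sox10 had a ratio of 2.75, and 1.9 with 1 barcode per linked group. After thinning to 5000 fragments it was 3.89 (1.43 to 11.1), from 11 fragments in the highest nuclei and 8 in the rest. Ranking by Sox10 and Erbb3, leaving out the gene itself, gave 1.18 for Erbb3, 2.15 for Foxd3 and 0.78 for Dct. The highest 10% of nuclei gave 1.61 for Foxd3 and 1.96 for Ngfr, and thinning gave 0.476 for Egr2 and 0 for Dct. Library by library, the thinned Sox10 ratio was 10.6 (2.12 to 103) at E13.5 and 1.46 (0.236 to 6.83) at E15.5. In the highest 10% of nuclei Sox10 was at 1.13 (0.595 to 1.99) at E13.5 and 5.48 (3.27 to 8.92) at E15.5. Counting Sox10, whose level numbers the groups, 5 of the 7 members were highest in group 1, against 2 with 3 groups, 6 with 6 groups, 4 with groups from gene spans and 6 with 1 barcode per linked group.

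No paired analysis of the stages was possible, because each stage has 1 library and nothing pairs the libraries of different stages. The clusters themselves were compared within libraries, since library was a term of every fit. In cluster 7 the promoters of members rested on as few as 2 fragments in the libraries that entered the fit, and on 0 at E12.5 (Mitf).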
